A study of Mus musculus with 4 samples.

Results

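The transcripts described here are 10 cytokine and cytokine receptor genes in mouse microglia and other brain myeloid cells, 4 encoding ligands (Il1a, Il1b, Il18 and Tnf) and 6 encoding receptor chains (Il6ra, Il6st, Il10ra, Il10rb, Tnfrsf1a and Tnfrsf1b). They were listed by symbol and all 10 were found among the 28692 genes of the deposited gene table. Single-cell RNA sequencing was done on 4 libraries, each from 1 male C57BL/6J mouse at an age of 90 days (n = 4). Every mouse had received phosphate-buffered saline (PBS) into the tail vein, 24 h before sacrifice according to the labels, whereas the study's methods give another interval. Cortex and hippocampus were dissociated by cold Dounce homogenisation, which is mechanical and uses no enzyme, and the study's methods describe sorting of live CD45+ and CD11b+ cells. All libraries belong to 1 group, so no treatment was compared and each comparison below is between genes, cells or libraries. Replicates 1 to 4 are named in the order of the sample titles, which carry the numbers 2, 3, 6 and 8.

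Cytokines are secreted or membrane-bound proteins through which immune cells signal, and microglia are a main source of them in the brain. Interleukin-1 alpha acts on the interleukin-1 receptor without needing caspase-1, whereas interleukin-1 beta and interleukin-18 are made as inactive precursors that caspase-1 cleaves in the inflammasome. Tumour necrosis factor is shed from the membrane by the protease ADAM17 and binds a receptor with a death domain (Tnfrsf1a) and one without (Tnfrsf1b), while the interleukin-6 and interleukin-10 receptors each pair a ligand-specific chain (Il6ra, Il10ra) with a chain shared by several cytokines (Il6st, also called gp130, and Il10rb).

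A UMI (unique molecular identifier) stands for 1 captured transcript. Cells were kept when 400 or more genes were seen in them and no more than 10% of their UMIs were mitochondrial, which left 13002 of 13138 barcodes, between 2576 and 3692 per library. The kept cells held between 5841671 and 11267195 UMIs per library, with a median of 1905 to 2936 UMIs per cell. Pairs of libraries shared 6 to 21 barcode sequences, and no pair agreed within sampling noise. Doublets were not removed. All 12 microglial markers were detected and summed to between 43481 and 44768 CPM (UMIs of a gene per 1000000 UMIs of its library), the 5 neutrophil markers were at 0, and cluster 6, with 109 cells led by Cd74, H2-Aa, H2-Eb1, H2-Ab1, Pf4 and Plac8, was left without a cell type name because its genes mix macrophage and monocyte markers. Replicate 4 stood apart before any cytokine was considered, since the 25 genes by which the study recognises microglia activated ex vivo (exAM) summed to 4638 CPM in it and to 2751, 2821 and 2909 CPM in replicates 1, 2 and 3. The study's methods record that sorting of the last mouse was interrupted by a blocked sorter, which left its cells longer at room temperature. A supplementary note of the study calls that mouse sample 4 and reports that nearly all of the exAM-enriched cells came from it. The labels do not say which library that mouse gave, and the part of this event in the values below was not tested.

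Promoter and transcript sequences are shown because Il1a, Il1b and Tnf, ligands known to be induced on activation, shared motifs that most of the other genes lacked. RefSeq promoter windows (GRCm38.p6, 250 bases before the start of the gene and 50 after) were found for 8 of the 10 genes, 4 ligands and 4 receptors. The TATA box TATAAA, searched on the strand of the gene, was present in the windows of Il1a, Il1b and Tnf and in those of 0 of the 4 receptors, against 8.32% of 32851 promoter windows. It began 32, 31 and 29 bases before the start of Il1a, Il1b and Tnf. The 4 ligand windows follow, read 5′ to 3′ on the strand of each gene, at chr2:129309923-129310222 (minus strand) for Il1a, chr2:129371090-129371389 (minus) for Il1b, chr17:35201958-35202257 (minus) for Tnf and chr9:50554450-50554749 (plus) for Il18. Capitals mark TATAAA and, in Il1a, the AP-1 motif TGANTCA.
Il1a: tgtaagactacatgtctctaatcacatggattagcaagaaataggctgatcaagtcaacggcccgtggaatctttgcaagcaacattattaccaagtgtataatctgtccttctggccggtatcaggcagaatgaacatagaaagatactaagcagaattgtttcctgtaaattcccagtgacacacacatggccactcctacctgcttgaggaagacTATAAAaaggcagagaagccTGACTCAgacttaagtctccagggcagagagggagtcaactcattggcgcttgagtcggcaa
Il1b: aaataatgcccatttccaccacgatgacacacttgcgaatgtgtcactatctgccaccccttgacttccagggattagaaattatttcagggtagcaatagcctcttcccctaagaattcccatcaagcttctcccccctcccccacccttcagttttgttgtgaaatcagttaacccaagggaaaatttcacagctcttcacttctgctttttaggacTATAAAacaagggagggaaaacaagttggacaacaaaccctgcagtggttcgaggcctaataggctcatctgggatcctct
Tnf: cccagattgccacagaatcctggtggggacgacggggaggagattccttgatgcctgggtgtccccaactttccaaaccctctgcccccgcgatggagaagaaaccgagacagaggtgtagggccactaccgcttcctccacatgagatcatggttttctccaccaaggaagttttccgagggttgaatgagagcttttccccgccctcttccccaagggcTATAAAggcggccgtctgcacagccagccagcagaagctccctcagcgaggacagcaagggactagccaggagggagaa
Il18: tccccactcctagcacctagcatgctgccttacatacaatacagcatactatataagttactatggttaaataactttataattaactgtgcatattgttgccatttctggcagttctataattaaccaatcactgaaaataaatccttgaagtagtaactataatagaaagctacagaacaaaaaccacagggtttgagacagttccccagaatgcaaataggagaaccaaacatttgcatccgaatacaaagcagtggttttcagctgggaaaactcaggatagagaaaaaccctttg

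Il18 had no TATAAA in its window, and the 4 ligand windows held between 1 and 11 CpG dinucleotides, where the receptor windows held between 11 and 33 and the median over all windows was 7. TGANTCA, searched on both strands, was found in the window of Il1a and in those of 0 of the 7 others, against 7.81% of all windows. For NF-kB only 1 form of the binding motif was searched, also on both strands, and it was in 0 of the 8 and in 1.63% of all windows. Other forms of the motif, and bases outside these windows, were not searched. The result therefore does not show that any of these genes lacks an NF-kB site.

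The same ligands carry AU-rich motifs in the 3′ untranslated region, the kind of element that is known to shorten the life of cytokine mRNAs. The heptamer TATTTAT occurred 8 times in Tnf, 3 times in Il1b and 3 times in Il1a, and also 3 times in the receptor gene Il10ra, whereas 27.5% of 20686 genes had at least 1 copy and 4.08% had 3 or more. Il18 and the other 5 receptor genes had 0 copies. Per 1000 bases of untranslated region, the pentamer ATTTA occurred 10.5 times in Tnf and 8.71 times in Il1b, against 2.72 times in Il1a, 2.99 times in Il18, 5.63 times in Il10rb and a median of 1.23 over all genes. For Tnf, Il1b and Il1a the stretch of 30 bases with the most ATTTA is shown, with the motif in capitals. These stretches hold 5, 3 and 2 copies, and the densest stretch of Il10ra holds 3.
Tnf: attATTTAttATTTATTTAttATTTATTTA
Il1b: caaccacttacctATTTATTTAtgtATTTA
Il1a: attttatctatgtATTTAtaaatatATTTA

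Il1a and Il18 were the ligands that microglia held at measurable levels in every library, whereas Il1b and Tnf were close to the limit of counting. Il1a (chromosome 2, 129299610 to 129309972) reached 68.3, 80.5, 72.4 and 82.5 CPM in replicates 1 to 4, from 482, 907, 423 and 743 UMIs. Il18 (chromosome 9, 50554827 to 50581840) reached 63.2, 65.0, 69.5 and 60.8 CPM. The ranges of the 2 genes overlapped, although Il1a was the higher in 4 of 4 libraries. Il1b (chromosome 2, 129364570 to 129371139), which lies 54597 bases from Il1a on the same strand, had 44, 32, 8 and 31 UMIs, or 6.24, 2.84, 1.37 and 3.44 CPM. Tnf (chromosome 17, 35199381 to 35202007) had 9, 32, 15 and 35 UMIs, or 1.28, 2.84, 2.57 and 3.89 CPM. Il1b was highest in replicate 1 and lowest in replicate 3, and Tnf was lowest in replicate 1, so these rare transcripts did not rank the libraries alike. The highest library exceeded the lowest 4.55-fold for Il1b and 3.05-fold for Tnf, but only 1.21-fold for Il1a and 1.14-fold for Il18.

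Of the 6 receptor genes, 5 were above every ligand, whereas Il6st was below Il1a and level with Il18. The coefficient of variation between libraries was 2.67 to 6.58% for the receptors, a range that also held Il18 (5.70%), and was 8.84% for Il1a, 58.7% for Il1b and 40.7% for Tnf. Il6ra (chromosome 3, 89864059 to 89913196), the ligand-binding chain of the interleukin-6 receptor, reached 352, 364, 357 and 342 CPM, and Il6st (chromosome 13, 112464070 to 112510086), its signalling partner, reached 67.0, 60.6, 69.3 and 61.4 CPM. The binding chain thus exceeded the signalling chain 5.49 ± 0.385-fold (SD, n = 4) in UMIs. Il10ra (chromosome 9, 45253837 to 45269149), which binds interleukin-10, reached 249, 243, 246 and 268 CPM, and Il10rb (chromosome 16, 91406164 to 91425834), its shared partner, reached 350.2, 356, 339 and 314 CPM. Il10rb exceeded Il10ra 1.36 ± 0.128-fold, in 4 of 4 libraries and without overlap of their ranges, and the ratio was smallest in replicate 4 (1.17), where Il10ra was highest and Il10rb lowest. Tnfrsf1a (chromosome 6, 125349362 to 125362484), the receptor with the death domain, reached 214, 218, 196 and 198 CPM, and Tnfrsf1b (chromosome 4, 145213463 to 145246870) reached 100.3, 90.8, 106 and 99.1 CPM. Tnfrsf1a exceeded Tnfrsf1b 2.10 ± 0.231-fold, in 4 of 4 libraries. Il10rb overlaps the annotated gene Gm21970 on the same strand, so its count is less certain than those of the others.

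**Figure D1:**
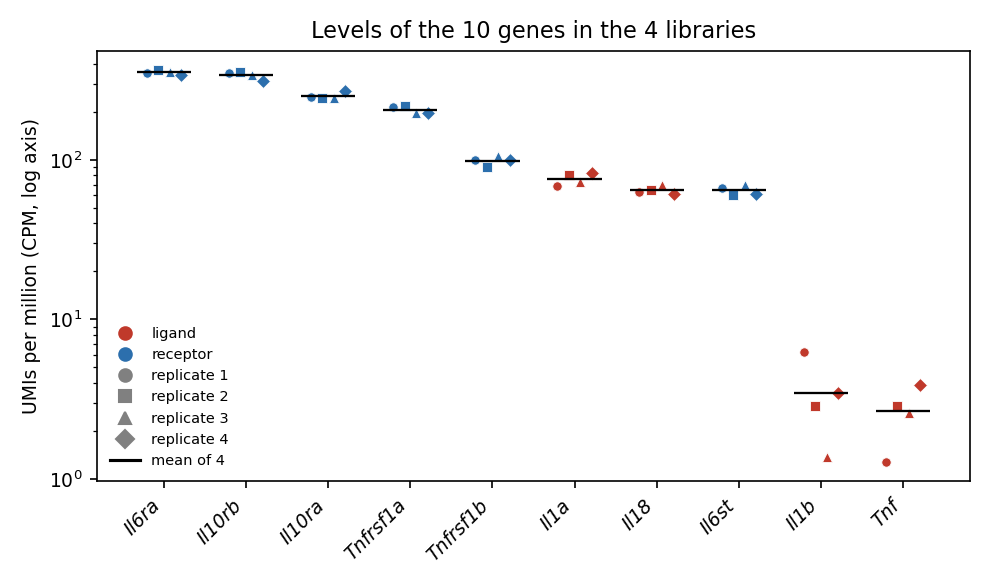
CPM (log axis) of the 10 genes in the 4 libraries, ordered by mean level, with ligands in red, receptors in blue, marker shapes for replicates 1 to 4 and black lines for the mean. The receptor genes lie between 60.6 and 364 CPM and Il1b and Tnf between 1.28 and 6.24 CPM.

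Ordered by mean level, the genes ran Il6ra, Il10rb, Il10ra, Tnfrsf1a, Tnfrsf1b, Il1a, Il18, Il6st, Il1b and Tnf. These are 3′ UMI counts, which are not scaled by transcript length and which differ in capture between genes, so the order is one of captured transcripts. Of the 9 pairs of neighbours, 5 did not overlap across libraries, with the gap between Il6st and Il1b being the widest on the log scale of the figure. Il6ra and Il10rb overlapped, as did Il1a and Il18. Il18 and Il6st did not differ beyond their spread (difference of 0.00674 ± 3.37 CPM, SD, n = 4, higher in 2 of 4 libraries, two-sided exact sign-flip permutation p = 1), nor did Il1b and Tnf, with Il1b the higher in 1 of 4 libraries (exact permutation p = 1). For the other 7 pairs the same gene was higher in 4 of 4 libraries, which gives the smallest p that 4 libraries allow in this exact test, and that p lies above 0.05.

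Summed over each class, the 6 receptor genes gave 1333, 1332, 1313 and 1283 CPM in replicates 1 to 4, and the 4 ligand genes gave 139, 151, 146 and 151 CPM. The receptor sum therefore exceeded the ligand sum 8.98 ± 0.455-fold (SD, n = 4), between 8.51-fold in replicate 4 and 9.59-fold in replicate 1. Its size depends on the genes listed and on setting 6 genes against 4. Il1a and Il18 supplied 95.8 ± 1.20% of the ligand sum, and Il1b and Tnf the remaining 4.18%. The ratio is thus one between receptors and those 2 ligands.

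Dixon's range test (two-sided, 95%) on log2(CPM + 1) found 0 of the 10 genes with 1 library apart. It found 4.62% of the 7656 genes at a mean of 10 CPM or more and 5.37% of the genes between 1 and 10 CPM. At those shares, 0 of 10 does not set these genes off from others. Nor does it mean even levels, since Il1b and Tnf differed 4.55-fold and 3.05-fold between libraries. Nearest to being called was Il10ra, with a gap from replicate 4 to its neighbour of 0.743 of the whole range. Replicate 4, which stood apart for the exAM genes, was the highest library for 3 of the 10 genes (Il1a, Tnf and Il10ra), where it was the highest for 31.8% of genes at 10 CPM or more. It was both highest and apart for 0 of the 10, and for 1.1% of those genes. Among the 8 genes at 10 CPM or more, the median SD between libraries was 0.08 on the log2 scale, against 0.11 over all 7656 genes. Their median level was 153 CPM against 37.9 CPM, and counting noise falls with level, so these SDs do not compare like with like.

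Detection followed level. With each cell reduced to 1000 UMIs, which left out 265 shallower cells (23 to 85 per library), a UMI of Il6ra was found in 30.1 ± 0.601% of cells (SD, n = 4), of Il10rb in 29.04 ± 1.36%, of Il10ra in 22.5 ± 0.827%, of Tnfrsf1a in 18.8 ± 0.937% and of Tnfrsf1b in 9.41 ± 0.426%. Il1a was found in 6.61%, 7.29%, 6.88% and 7.97% of cells in replicates 1 to 4, Il18 in 6.23 ± 0.298% and Il6st in 6.24 ± 0.279%. Il1b was found in 0.554%, 0.294%, 0.149% and 0.226% of cells and Tnf in 0.102%, 0.266%, 0.252% and 0.349%. At full depth the shares were 57.1% for Il6ra, 16.8% for Il1a, 14.7% for Il18, 0.625% for Il1b and 0.660% for Tnf. The median over the receptors was 20.6 ± 0.439% of cells and that over the ligands 3.29 ± 0.135%, and the receptor median was the higher in 4 of 4 libraries. The ligand median lies in the gap between Il18 and the rare Il1b and Tnf, so it is the share of no ligand. Nearly all cells were myeloid, so no cell type lacking these genes was at hand to measure the share that free RNA in the droplets gives, and the shares of Il1b and Tnf cannot be told apart from such a background by detection alone.

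Il1b was the gene least evenly spread over cells in replicates 1 and 4, but not in replicates 2 and 3. For each gene, the share of cells with a UMI was divided by the share expected if its UMIs fell on cells in proportion to their depth, so that 1 means an even spread and a low value means that few cells hold the UMIs. All 6 receptor genes were close to 1, with means between 0.982 for Il6st and 1.001 for Il10rb. Il18 was at 0.983 ± 0.0131 and Il1a at 0.969 ± 0.0264, with 0.999, 0.936, 0.963 and 0.977 in replicates 1 to 4. Il1b was at 0.686, 0.942, 1.002 and 0.551, low in replicates 1 and 4 and even in replicate 3, where it had 8 UMIs. Tnf was at 1.001, 0.848, 1.003 and 0.977. No gene was below 0.9 in every library, a pattern found for 0.522% of genes at 10 CPM or more and 1.74% of genes between 1 and 10 CPM, and 0 of the 10 were below 0.8 in every library (0.3% of genes at 10 CPM or more). Il1b and Tnf were below 0.9 in at least 1 library, which held for 9.85% of genes at 1 to 10 CPM, their own range, and for 1.42% at 10 CPM or more. The ligand median (0.973 ± 0.0231) and the receptor median (0.995 ± 0.00456) differed by 0.0221 ± 0.0223, with the receptors higher in 3 of 4 libraries, a difference of the size of its SD that shrank to 0.0120 without replicate 2.

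**Figure D2:**
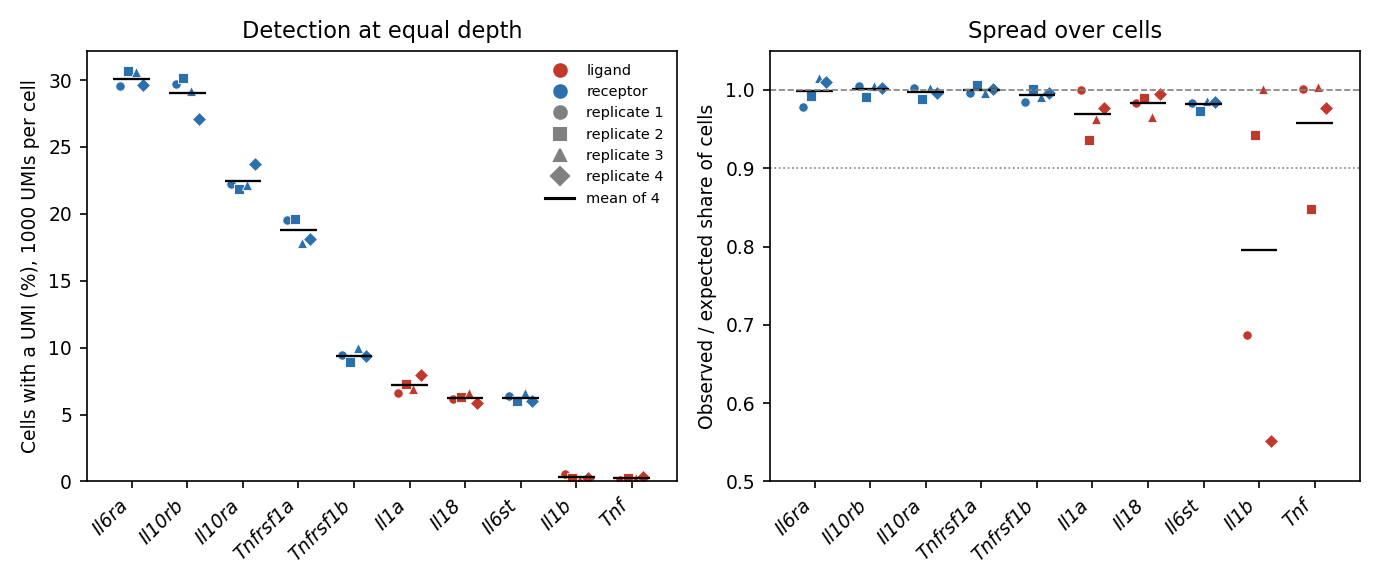
Left, the share of cells (%) with a UMI of each gene when every cell is reduced to 1000 UMIs; right, the observed share of cells with a UMI divided by the share expected from depth, with a dashed line at 1 and a dotted line at 0.9 (the axis starts at 0.5). Colours, shapes and black lines are as for the levels; Il1b falls to 0.686 and 0.551 in replicates 1 and 4 while all receptor values stay above 0.9.

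Few transcripts per cell were seen of any ligand. The most UMIs of Il1a in 1 cell were 5, of Il18 4, of Tnf 3 and of Il1b 7, against 14 for Il6ra. Il1b reached its 7 UMIs in a cell of replicate 4, although the library held only 31. Of the 115 Il1b UMIs in all libraries, 23 of 44 in replicate 1 and 19 of 31 in replicate 4 lay in cells with at least 2, but 3 of 32 in replicate 2 and 0 of 8 in replicate 3. The top 1% of cells by Il1a UMIs held 10.6 to 14.5% of its UMIs, near the 10.8 to 16.1% of Il18 and the 12.2 to 15.9% of Il6st, genes of like level.

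Cluster 6 held much of the Il1b. The 10 genes and the exAM genes had been left out of the genes used for clustering. With 0.838% of all cells, cluster 6 held 47 of the 115 Il1b UMIs (40.9%) and 13 of the 15 cells with at least 2 Il1b UMIs. By library it held 23 of 44, 5 of 32, 0 of 8 and 19 of 31 UMIs, from 25, 19, 19 and 46 cells. The level of Il1b within it was 334, 36.9 and 103 CPM in replicates 1, 2 and 4, and the 0 UMIs in replicate 3 allow up to 28.6 CPM by counting error (floor of 3 UMIs). In the other cells Il1b was at 3.01, 2.43, 1.39 and 1.36 CPM. Leaving out cluster 6, a step chosen after seeing the data, brought the spread of Il1b over the remaining cells to 0.908, 1.004, 1.002 and 0.835 of the expected share and the fold between the highest and lowest library from 4.55 to 2.21.

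Most Il1b-positive cells of cluster 6 had more microglial than monocyte marker UMIs, and monocyte-led cells were positive at a higher rate in replicate 1 only. In 89 of its 109 cells the 12 microglial markers gave more UMIs than the 8 border macrophage or the 6 monocyte markers, and these held 37 Il1b UMIs in 17 cells. The median microglial marker UMIs in them were 13, 43, 97 and 30 in replicates 1 to 4. The microglial list is far more abundant, at a mean of 44303 CPM over whole libraries against 37.7 CPM for the monocyte list. A lead of microglial markers therefore does not show that a cell is a microglial cell. The 12 cells in which monocyte markers led held 10 Il1b UMIs in 4 cells, all of them in replicate 1, where 4 of 5 such cells and 7 of 19 microglia-led cells were positive. Replicate 4 went the other way, with 0 of 3 monocyte-led and 7 of 36 microglia-led cells positive. In replicate 3 no cell of either kind was positive, and replicate 2 had no monocyte-led cell. The 8 cells in which macrophage markers led held 0. Over whole libraries the monocyte list summed to 46.1, 11.9, 38.0 and 54.995 CPM and the border macrophage list to 13.04, 43.7, 62.8 and 87.8 CPM in replicates 1 to 4, with no marker of either list at 0. The part of these cells in the Il1b differences between libraries was not tested. The split of cluster 6 was also made after seeing the data.

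Cluster 6 and cluster 7, a microglia-like cluster of 107 cells led by Ccl4, Lpl, Lgals3 and Ccl3, held more Tnf than their share of cells, but most of it lay elsewhere. The most was in the large microglia-like cluster 2, with 35 UMIs (38.5%) from 26.1% of the cells. Tnf was higher there than in other cells in replicates 3 and 4 (3.97 against 1.96 and 6.32 against 2.57 CPM). It was lower in replicate 2 (2.05 against 3.26 CPM) and had 0 UMIs in replicate 1. Cluster 7 held 10 of the 91 Tnf UMIs (11.0%) and cluster 6 held 8 (8.79%), each with under 1% of the cells. In cluster 7, Tnf reached 35.4, 35.1 and 16.1 CPM in replicates 1, 2 and 4, against 1.0001, 2.34 and 3.72 CPM in the other cells of the same libraries. In replicate 3 it had 0 UMIs, which allows up to 50.2 CPM. Cluster 7 held 2 Il1b UMIs in all. In replicate 2 cluster 6 held 5 Il1b and 6 Tnf UMIs, and in replicate 3 clusters 6 and 7 held 0 of both, so the counts are too few to compare where the rare ligands lay.

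**Figure D3:**
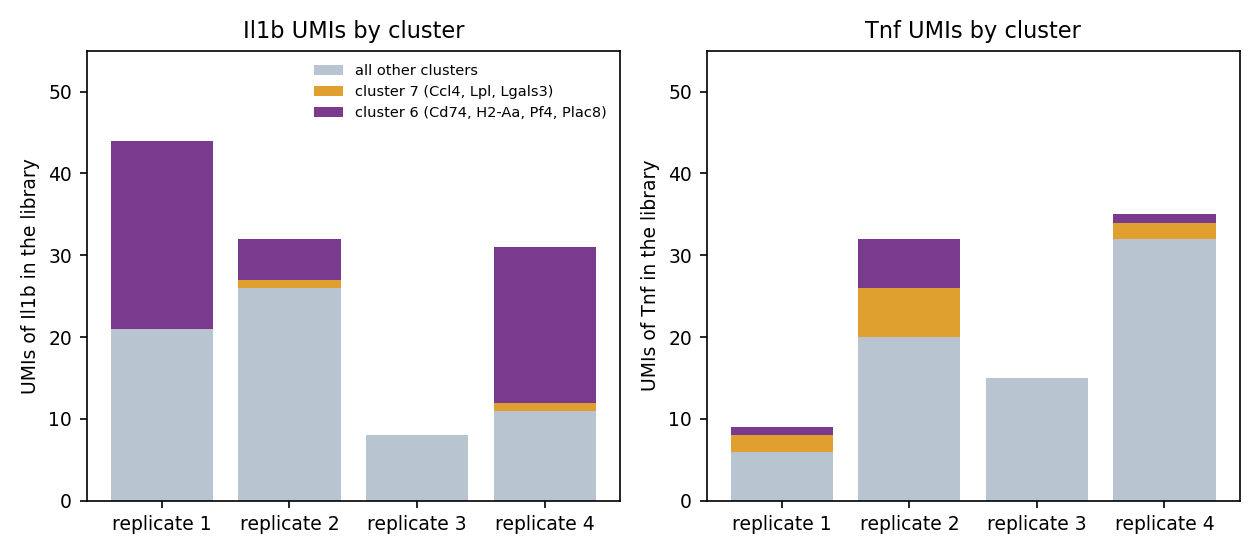
UMIs of Il1b (left) and Tnf (right) in each library, stacked by cluster, with cluster 6 in purple, cluster 7 in orange and all other cells in grey. Cluster 6 holds 23 of 44 and 19 of 31 Il1b UMIs in replicates 1 and 4 and none in replicate 3.

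The abundant genes varied less by cluster. Il18 was higher in cluster 5 (166 interferon-responsive microglia-like cells led by Ifit3 and Isg15) than in other cells in 4 of 4 libraries, by 1.498 ± 0.243-fold (SD, n = 4), from 40 UMIs. Cluster 7 had less Il6ra in 4 of 4 libraries (0.635 ± 0.0557 of the level in other cells), less Il10ra (0.547 ± 0.327) and less Il6st (0.479 ± 0.253, from 13 UMIs), while Il10rb (1.06 ± 0.150) and Tnfrsf1b (1.03 ± 0.182) were near even. Cluster 6 had less Il18 (0.620 ± 0.209), Il6ra (0.630 ± 0.286) and Il10ra (0.702 ± 0.120) in 4 of 4 libraries. Its Tnfrsf1b was higher in 3 of 4 (1.49 ± 0.512). Cluster 4, 189 cells with a median of 1062 UMIs, had more Il6st (2.06 ± 0.837, from 27 UMIs), Il10rb (1.51 ± 0.240) and Tnfrsf1b (1.36 ± 0.377) in 4 of 4 libraries, although its low depth moves with this and its part was not tested. In the 4 large microglia-like clusters the mean over libraries of the ratio to other cells stayed between 0.870 and 1.14 for the 8 abundant genes, while single libraries ran from 0.759 to 1.31, both for Tnfrsf1b in cluster 1. Clusters were defined from these cells, so these ratios are descriptions without a test.

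**Figure D4:**
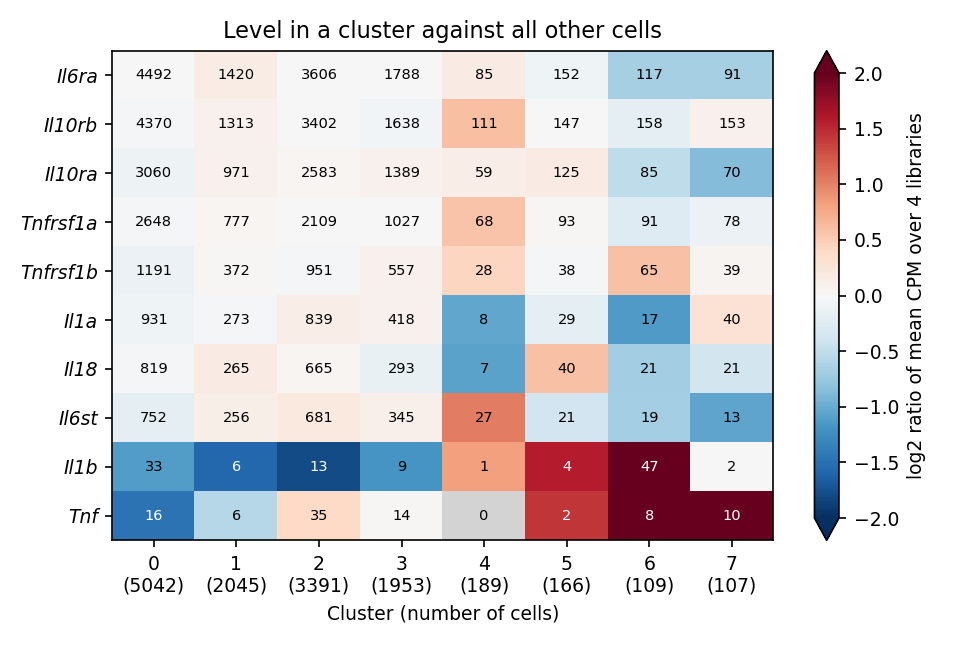
Colour shows the log2 ratio of the mean CPM of each gene (rows) in a cluster (columns, with the number of cells) to that in all other cells, means over 4 libraries, capped at 2 in either direction, and each cell of the map prints the UMIs behind it. Il1b in cluster 6 (47 UMIs) and Tnf in clusters 6 and 7 (8 and 10 UMIs) pass the cap, and grey marks 0 UMIs.

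Cells chosen for activation genes were compared with the rest. The 46 chemokine-high cells (at least 5 UMIs of Ccl3 and Ccl4 together, 4, 7, 10 and 25 per library) held 3, 3, 7 and 10 UMIs of Il1a, or 233, 114, 245 and 117 CPM against 68.0, 80.4, 71.6 and 82.2 CPM in other cells. Il1a was thus higher in 4 of 4 libraries (2.42 ± 1.16-fold, SD, n = 4), the most that 4 libraries can show in the exact test. With a threshold of 3 UMIs (118 cells, 44 Il1a UMIs) 1 library fell below even, at 0.940 (exact permutation p = 0.25), and with one of 10 UMIs (15 cells) at least 1 library had no Il1a. The UMIs at the threshold of 5 came from 2, 3, 2 and 8 cells. Tnf gave 4 UMIs and Il1b 1 UMI in these cells. Il18 was at 1.38 ± 0.817-fold with no common direction. Among the receptors, Il6ra, Il10ra and Il10rb were lower in 3 of 4 libraries (0.718 ± 0.294, 0.659 ± 0.370 and 0.785 ± 0.314, exact p = 0.25 each).

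In the 5% of cells with the largest share of 8 immediate early genes (Fos, Jun, Egr1 and others, 651 cells), Il1b was at 2.12 to 7.19 times its level in other cells, higher in 4 of 4 libraries, from 5, 4, 2 and 3 UMIs in 2, 4, 2 and 1 cells. Restricted to microglia-like clusters, a check added after seeing the data, 8 UMIs remained and 1 library had 0. Il1a was at 1.20 ± 0.263 and higher in 4 of 4, but at 1.005 when the highest 10% of cells were taken, and the 6 receptor genes had mean ratios between 0.973 and 1.06. Tnf had 0, 9, 0 and 2 UMIs in these cells, with most in replicate 2. An exact test was possible for 9 of the 10 genes in these cells and for 6 in the chemokine-high cells, and with 4 libraries it could not reach 0.05 for any.

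Most pairs of the 10 genes were found together about as often as depth predicts, and the ratios furthest from 1 involved the rare Il1b or Tnf. Over the 45 pairs, the cells with both genes were a median of 0.987 times the number expected from the depth of each cell. Of these pairs, 0 were above 1 in every library and 6 were below 1 in every library. The same count was not made for pairs of other genes, so it sets nothing apart about these 10. Il1b and Tnf shared 4 cells against 0.585 expected, with 1, 2, 0 and 1 cells in replicates 1 to 4. Tnf and Tnfrsf1a shared 51 cells against 38.3 expected, above 1 in 3 of 4 libraries, the highest ratio (1.33) of the 37 pairs with at least 20 cells expected. Il1b and Tnfrsf1a, the lowest of those pairs, shared 26 cells against 37.0 expected, below 1 in 4 of 4 libraries.

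Companion genes were sought among genes at 50 CPM or more, as those whose level in cells with a UMI of the member exceeded that in other cells at least 1.5-fold in every library. Only genes with at least 5 UMIs in the positive cells of each library were tested, 668 for Il1b and 799 for Tnf. Where positive cells are few, this filter itself favours genes that are high in them, and the number passing by chance was not measured. None was found for the other 8 genes, which had 359 or more positive cells per library. Il1b, with 8 to 30 positive cells per library, had 4: Tmsb10 (thymosin beta 10, which binds actin; median ratio 4.16), Cd52 (a leukocyte surface glycoprotein; 2.97), Gpx1 (glutathione peroxidase; 2.43) and Shfm1 (a proteasome component; 1.69). Outside cluster 6, again chosen after seeing the data, the lowest ratios of these 4 fell to between 0.566 and 1.12, over 64 cells. Tnf, with 9 to 34 positive cells per library, had 3: Cd83 (a surface marker of activation; median 2.66), Nfkbia (the inhibitor of NF-kB that NF-kB induces; 2.22) and Cflar (an inhibitor of caspase-8; 1.86). Outside cluster 6 all 3 were still higher in 4 of 4 libraries over 79 cells, with lowest ratios of 1.27 for Nfkbia, 1.56 for Cd83 and 1.85 for Cflar. The 3 genes had been chosen in these same cells, of which 79 of 85 remained, so this is no independent check.

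The wider pathway was read from lists of related genes. Of 21 other cytokine ligands, 10 were at 1 CPM or more and 0 of these had 1 library apart. Il16 (189 ± 6.17 CPM, SD, n = 4), a chemoattractant for CD4+ cells, exceeded each of the 4 ligands above, and Tnfsf13b (BAFF, 26.8 ± 3.98 CPM) and Il15 (19.97 ± 2.199 CPM) followed. Il6, the ligand of Il6ra, was close behind at 19.8 ± 3.09 CPM from 651 UMIs, above Il1b and Tnf in every library. The anti-inflammatory Il10, ligand of the abundant Il10ra, was at 0 UMIs in all libraries, as were Il33, Il12a, Il12b, Il13, Ifnb1, Ifng, Lta and Lif, which by counting error leaves room for 0.514 CPM in replicate 3, the shallowest. Lta lies 1157 bases from Tnf.

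Of 22 other cytokine receptors, 14 were at 1 CPM or more, led by the interferon receptors Ifngr1 (1455 ± 14.4 CPM), Ifnar2 (284 ± 22.9 CPM) and Ifngr2 (263 ± 6.16 CPM). Ifnar2 and Ifngr2 share chromosome 16 with Il10rb, and Ifnar2 ends 574 bases before it. Il18r1, which binds interleukin-18, was at 0 UMIs, and Il1r1, the signalling receptor for both interleukin-1 forms, had 9 UMIs in all. Ifnar1 had 1 library apart. Of the 4 binding and decoy genes, 1 was at 1 CPM or more, Il18bp (1.94 ± 0.482 CPM), and Sigirr (0.561 ± 0.203 CPM) and Il1r2 (0.398 ± 0.236 CPM) were lower.

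The genes that process the ligands and carry the receptors' signal were present. Of 10 maturation and shedding genes, 9 were at 1 CPM or more, with a list median of 64.6 CPM, led by Pycard (the inflammasome adaptor, 622 ± 41.1 CPM), Adam10 (104 ± 6.77 CPM) and Gsdmd (gasdermin D, 103 ± 4.49 CPM). All 9 adaptors of the interleukin-1 and interleukin-18 receptors were at 1 CPM or more (median 32.3 CPM), led by Irak2 (70.3 ± 6.69 CPM), Tab2 (67.7 ± 7.002 CPM) and Myd88 (58.3 ± 5.38 CPM). All 8 signal transducers of the interleukin-6 and interleukin-10 receptors were present (median 29.9 CPM), led by Jak1 (131 ± 3.66 CPM) and Stat3 (79.4 ± 3.68 CPM). All 9 adaptors of the tumour necrosis factor receptors were present (median 30.2 CPM), led by Casp8 (195 ± 1.20 CPM), Cflar (132 ± 8.35 CPM) and Ripk1 (33.7 ± 1.79 CPM). A library stood apart for Rhbdf2, Myd88, Map3k7 and Cflar among these lists.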

How the data were processed

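Single-cell libraries were made by the authors with the 10x Genomics 3′ kit (second version), and the values they deposited are UMI counts per gene and cell, whole numbers that had not been normalised. Per the submitters' processing notes, Cell Ranger 2.2.0 was used with mm10 (GRCm38), so cells had already been called. The 10 genes and all lists were chosen with earlier results of these data known. Counts were summed over the kept cells of each library (at least 400 genes, at most 10% mitochondrial UMIs) and scaled to 1000000 UMIs per library (CPM). Where a count was 0, a floor of 3 UMIs was used, and floors and intervals cover counting error only. Total UMIs ranged from 5841671 to 11267195 per library, which leaves Il1b and Tnf limited by counting.

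Libraries were compared with Dixon's range test on log2(CPM + 1), and genes within libraries with an exact sign-flip permutation test, which with 4 libraries cannot give a p below 0.05. Each library is 1 mouse, so p-values measure the spread between mice and their handling together. Detection at 1000 UMIs per cell was the exact hypergeometric expectation, and the expected share of cells was the Poisson expectation given each cell's depth. Leiden clusters (resolution 0.5, 2000 variable genes without the 10 genes and the exAM genes, 20 principal components, 15 neighbours) were computed with scanpy 1.11.5. Cluster names rest on marker lists, and clusters of mixed markers stayed unnamed. The text names the 10 genes in every library, the 3 highest genes of each list (1 of them is not reported here), every listed gene with 1 library apart, and companions with a lowest ratio of at least 1.5 (up to 5 per gene). Genes named for other reasons were chosen after their values were seen. Gene positions are from GENCODE M21 (GRCm38) and promoters from RefSeq (GRCm38.p6), whose starts can differ. Untranslated regions are the longest per gene in GENCODE M21. Scaling with edgeR 4.0.16 (TMM) and DESeq2 1.42.0 (size factors), other cell filters, thresholds and depths were tried as alternatives. The range test, the thinning and the measure of spread were run on simulated data. For the range test these held only genes at 10 CPM or more, a level that Il1b and Tnf do not reach.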

Additional observations from a re-analysis of the deposited data

Results flagged for a closer look

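Of 113 values with 4 libraries that were examined, 7 had 1 library apart by Dixon's range test, and chance alone flags about 1 in 20. Among the 10 genes, the spread of Tnf over cells was low in replicate 2 (0.848 of the expected share, gap of 0.834 of the range), where 32 UMIs fell on 27 cells. The exAM genes were high in replicate 4 (gap of 0.893 of the range). Ifnar1 was high in replicate 1 (83.2 CPM against 78.5 to 79.1 CPM, 0.860 of the range), as was Rhbdf2 (6.80 CPM against 5.11 to 5.31 CPM, 0.871). Myd88 was low in replicate 1 (50.3 CPM against 60.2 to 61.8 CPM, 0.870). Map3k7 was low in replicate 2 (9.14 CPM against 11.1 to 11.3 CPM, 0.905), and Cflar was high in replicate 3 (144 CPM against 127 to 129 CPM, 0.866).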

How the results depend on the processing

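No paired analysis was possible because all 4 libraries belong to 1 group. No gene of the 10 had 1 library apart under TMM or DESeq2 scaling, without mitochondrial genes, with a pseudocount of 10 CPM, or under the other cell filters. The number of all genes with 1 library apart changed from 354 to 2052 of 15581 without a filter on level and to 148 of 3099 at 50 CPM or more, and stayed between 353 and 361 under other scaling. The sum of the 6 receptor genes exceeded that of the 4 ligand genes 8.78 to 9.14-fold with any 1 replicate left out and 8.86 to 9.04-fold under other cell filters. The difference in median detection between receptors and ligands was 29.5 percentage points at 2000 UMIs and 34.8 without thinning, against 17.3 at 1000. In chemokine-high cells, the Il18 ratio turned to the other side of 1 on the log scale without replicate 1 (mean 1.02, range over the 4 omissions 1.02 to 1.65). The Il1a ratio there was 2.07 at 3 or more UMIs (lowest library 0.940) and 2.24 at 10 or more (lowest 0), against 2.42. In immediate-early-high cells, Il18 turned with the highest 10% of cells (0.990), whereas Il1a turned there on the log scale only (mean 1.005). Il1b turned with the highest 1% (0.929, from 1 UMI). At resolution 1 the Il6ra ratio in the cluster led by Ccl4 moved from 0.635 to 0.796, with 207 cells in place of 107. For Il1b, 0 of 4 companion genes kept a lowest ratio of 1.5 without cluster 6, against 2 of 3 for Tnf, an alternative chosen after seeing the data. It left 64 of 85 positive cells for Il1b and 79 of 85 for Tnf. Leaving out each replicate gave 17.2 to 17.6 points for detection, 0.0120 to 0.0298 for the spread over cells, and ratios of the summed ligands of 1.78 to 2.24 in chemokine-high and 1.16 to 1.27 in immediate-early-high cells. At the main settings these ratios were 2.03 and 1.23. With the highest 10% and 1% of cells the immediate-early ratio was 1.06 and 1.69, and its lowest library fell to 0.986 and 0.926. The chemokine-high ratio was 1.82 at 3 or more UMIs and 2.62 at 10 or more, above 1 in every library. The cause of these changes was not tested. Depth limits Il1b and Tnf, with 8 to 44 and 9 to 35 UMIs per library.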
